A study of Mus musculus with 12 samples.

Results

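The clustered protocadherins made up 59 of the 46517 gene rows of the deposited tables, 15 in the alpha, 22 in the beta and 22 in the gamma subcluster. They were taken by gene name alone, so no measured value chose a single gene. The family as a whole, however, was selected on its fold changes between decitabine and control and its levels in the same libraries, so all of these are given as a description. By the GENCODE M21 annotation of the mm10 build, the family lies on chromosome 18 between positions 36930184 and 37841873, with beta between 37264938 and 37524479 and gamma between 37661793 and 37841873. Of the 59 rows, 57 had the same name in that annotation. ENSMUSG00000023036, a second row named Pcdhga8 in the tables, is Pcdhgc4 there and is called so here. ENSMUSG00000103458, a second row named Pcdha4, is Gm42416 there, and it was the 1 member with 0 counts in all 12 libraries. Pcdha11 was listed under a pair of identifiers.

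Clustered protocadherins are cadherin-related proteins of the cell surface, best known from neurons, where like isoforms bind each other between cells and let branches of a neuron recognise and avoid each other. Each variable exon of the alpha and gamma genes has its own promoter and is spliced to constant exons shared by its subcluster, whereas a beta gene is translated from its variable exon alone. Promoter choice is known to depend on DNA methylation and on CTCF and cohesin, which bring a promoter to a distant enhancer.

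RNA was sequenced from B16F10, a mouse melanoma line, and 4T1, a mouse mammary carcinoma line, each untreated or treated with decitabine, a cytidine analogue that traps DNA methyltransferases in DNA. The dose was 0.1 µM in B16F10 and 1 µM in 4T1, both over 48 h, so line and dose cannot be told apart. Dead cells were depleted with magnetic beads ahead of RNA extraction. There were 3 libraries in each of the 4 groups, and nothing in the labels says whether they were separate cultures, so that the spread between them may be technical. No genotype, transgene or other agent is named for any group. The study compared decitabine with control in each line.

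Libraries held 48197936 to 76042600 estimated counts, and 3 counts corresponded to 0.0465 to 0.0725 CPM (counts scaled to library size, with TMM factors over the 12 libraries). Melanocyte markers summed to 9256 to 12199 CPM in B16F10 and 5.93 to 10.5 CPM in 4T1, and mammary epithelial markers to 3.43 to 5.07 and 3164 to 4085 CPM, so each line carried the markers of its label. Of 14 neuron markers, 10 had means under 0.1 CPM in B16F10 controls and 11 in 4T1 controls. Scaling by library size alone shifted the median log2 fold change of all genes in 4T1 by -0.30 and that of the difference between lines by -0.22, and it called 4248 genes higher and 8242 lower in 4T1 in place of 6087 and 5601. No called member or subcluster sum changed direction under it, and it is said below where a list gene named there did. Since cells were measured in bulk, fewer expressing cells and less RNA per cell cannot be told apart. Counts of alpha and gamma genes were in large part estimates, because these genes share constant exons: 4.0% of the alpha and 9.41% of the gamma values above 0 were exact whole numbers, against 83.6% in beta. A median of 62.6% of the 31-base words of an alpha gene's transcripts, 46.0% of a gamma gene's and 11.8% of a beta gene's also occurred in another member. Sums over a subcluster are given beside single genes for this reason.

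The untreated lines differed in which protocadherins they transcribed. Untreated B16F10 held 29 members with a mean of at least 1 CPM (18 beta, 11 gamma) and untreated 4T1 held 11 (7 beta, 4 gamma), and no alpha gene reached that level in either. The beta sum was 124 ± 7.21 CPM in B16F10 and 23.8 ± 0.576 CPM in 4T1 (SD, n = 3 each). The gamma sums were 69.4 ± 0.671 and 92.1 ± 7.99 CPM, and the alpha sums 0.965 ± 0.292 and 0.0438 ± 0.0481 CPM. In a fit of all 12 libraries (edgeR quasi-likelihood test, Benjamini-Hochberg adjusted p below 0.05, here the meaning of "called"), 38 of 48 tested members were lower in untreated 4T1 than in untreated B16F10 and 2 were higher. Of all 17127 genes tested, 37.9% were lower and 40.0% higher. All 21 tested beta genes were among the lower ones. Some passed the expression filter through B16F10 alone, such as Pcdhb2, with control means of 2.23 CPM in B16F10 and 0.0194 CPM in 4T1. For such genes the direction was largely set by the filter.

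Both lines put most of their gamma RNA into a C-type gene, but not the same one. Pcdhgc3 and Pcdhgc4 belong with Pcdhgc5 to the C-type gamma isoforms, which lie last in the subcluster and are the least like the other variable exons. Pcdhgc3, an isoform that regulates dendrite arborisation in mouse neurons, measured 64.0, 71.6 and 76.7 CPM in the 4T1 controls and 0.241, 0.431 and 0.0157 CPM in the B16F10 controls. Pcdhgc4, the isoform needed for survival of interneurons in mice, measured 38.1, 41.3 and 42.2 CPM in the B16F10 controls and 13.4, 15.9 and 15.3 CPM in the 4T1 controls. The lines did not overlap in either gene. Pcdhgc3 was 8.34 ± 0.27 higher (log2, SE) in 4T1, and Pcdhgc4 differed by -1.44 ± 0.08 (log2, 4T1 minus B16F10, SE). Pcdhgc3 and Pcdhga6 were the 2 members called higher in 4T1. Pcdhgc4 took 58.4% of the gamma sum in B16F10 controls and Pcdhgc3 76.8% in 4T1 controls. Pcdhgc4 has an annotated transcript with 153 bases of its own beside the constant exons, and how much of its count came from constant exons was not tested.

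Per kilobase of the longest transcript, the highest control levels in B16F10 were those of Pcdhgc4 (8.07 CPM per kb), Pcdhb16 (4.79) and Pcdhb5 (4.12). In 4T1 controls they were those of Pcdhgc3 (15.1 CPM per kb), Pcdhgc4 (2.96) and Pcdhb22 (0.879). Within beta, the order of the control levels per kilobase was alike in the lines, with a Pearson r of 0.750 and a Spearman rho of 0.814 across the 22 genes. Within gamma these were 0.457 and 0.539 across 22 genes. Genes of a subcluster share libraries and, in gamma, estimated reads, so these values carry no test.

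**Figure D1:**
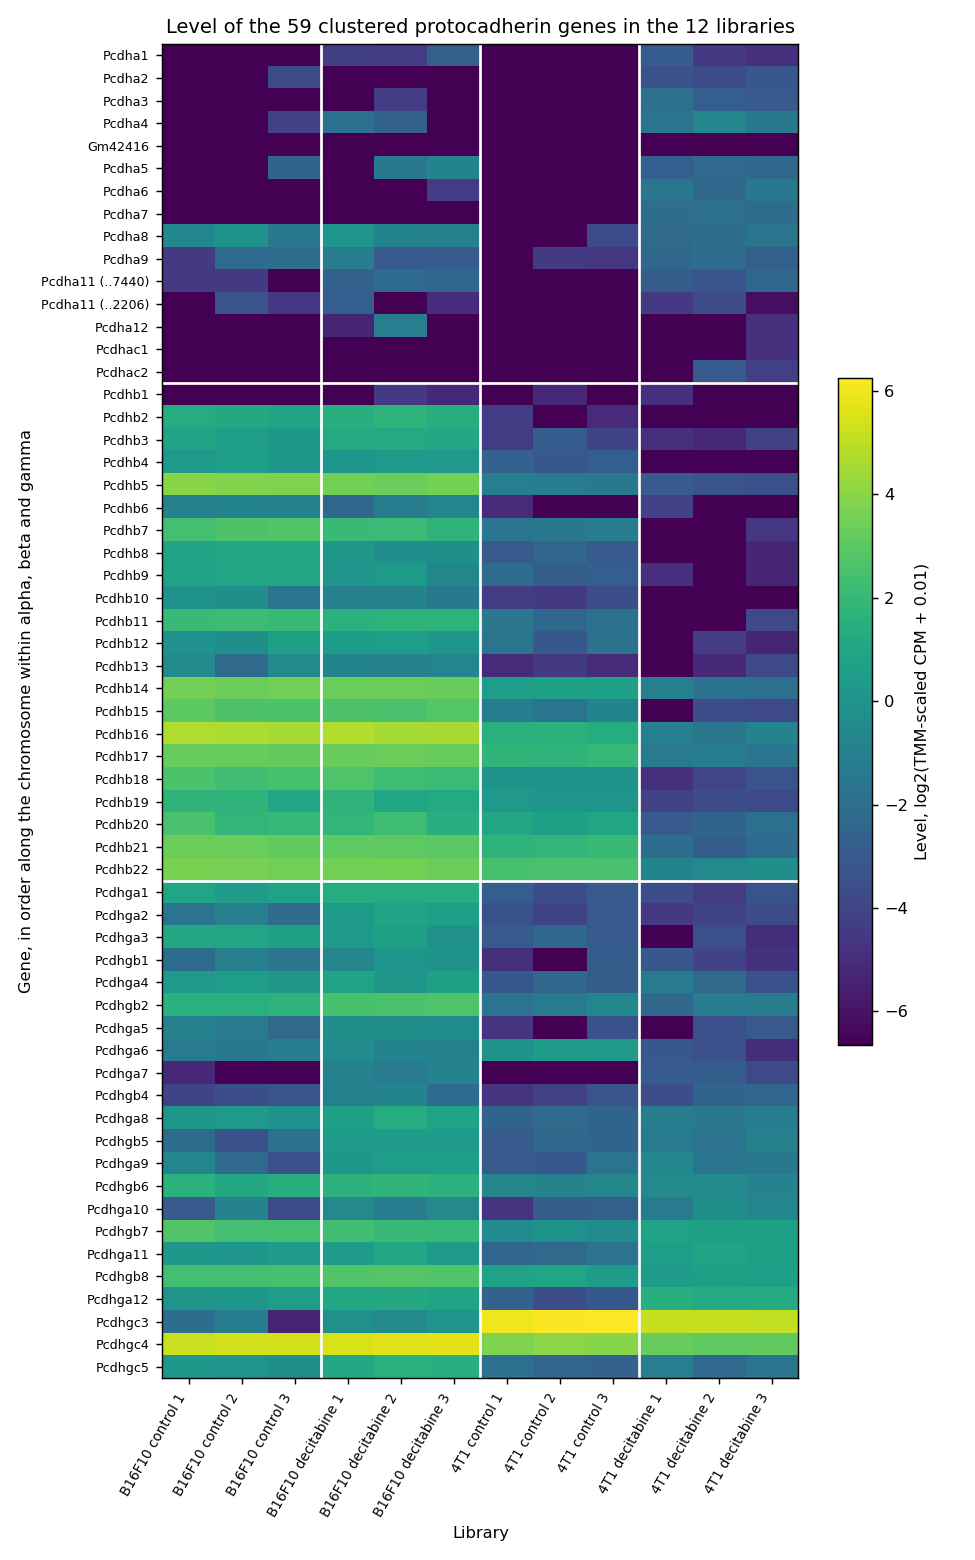
Level of each of the 59 clustered protocadherin genes (rows, in order along the chromosome within alpha, beta and gamma) in each of the 12 libraries (columns), as log2 of TMM-scaled CPM plus 0.01. The beta block darkens in the 4T1 decitabine libraries, where no beta gene reached a mean of 1 CPM, while Pcdhgc3 and Pcdhgc4 stand out in 4T1 and Pcdhgc4 in B16F10.

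In 4T1, every beta gene with enough counts to be tested fell after decitabine. The beta sum was 23.6, 23.3 and 24.4 CPM in the control libraries and 2.58, 2.42 and 2.96 CPM in the treated ones. The groups stood far apart, and the mean was 8.97-fold lower with decitabine. All 12 beta genes that passed the expression filter were called lower and none higher, where 36.1% of all 15523 genes tested were called lower and 39.2% higher. Their log2 fold changes ran from -2.04 ± 0.34 (SE) in Pcdhb5 to -4.59 ± 0.63 in Pcdhb7, with a median of -3.22 against 0.03 for all genes tested. The filter keeps a gene that is high enough in 1 group alone. Genes near 0 with decitabine, such as Pcdhb7 (means of 0.369 CPM in control and 0.0103 CPM treated), passed it through the controls. For such genes a fall was largely set by the filter, so the count of 12 is given as a description. Of all 22 beta genes, 17 had every control library above every treated one, 5 overlapped and 0 went the other way. The share of all genes without overlap was not counted, here or for the gamma and alpha genes below, so these counts are descriptions only. The number of beta genes with a mean of at least 1 CPM was 7 in control and 0 with decitabine.

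Pcdhb22, the last beta gene and the highest in 4T1, measured 5.58, 5.95 and 5.90 CPM in control and 0.546, 0.711 and 0.832 CPM with decitabine. Its groups did not overlap, and it fell by 2.97 ± 0.15 (log2, SE). Pcdhb21 measured 3.32, 3.57 and 4.14 CPM in control and 0.242, 0.130 and 0.217 CPM with decitabine, and it fell by 4.18 ± 0.22. Pcdhb17 measured 3.50, 3.39 and 3.87 CPM in control and 0.387, 0.426 and 0.326 CPM with decitabine, and it fell by 3.19 ± 0.17. In these 3 genes, the highest beta members of 4T1 controls, the lowest control library was several times the highest treated one. Pcdhb7, with the largest fold change, rested on few reads, 58 counts in the control libraries and 2 in the treated ones, which makes it 29.2-fold lower (95% interval from counting error 7.72 to 247). The 10 beta genes that were not tested were low in both groups, among them Pcdhb4 with 21 and 0 counts, at least 7.04-fold lower against 3 counts over the group, and Pcdhb12 with 36 and 3 counts.

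In B16F10, by contrast, the beta sum stayed near its control level. It was 132, 122 and 118 CPM in control and 117, 111 and 107 CPM with decitabine, where the highest treated library lay just below the lowest control. The log2 ratio of the means was -0.15. Of 21 tested beta genes, 5 were called lower and 1 higher, which is 23.8% and 4.76% of them, where 19.8% and 21.4% of all 14344 genes tested were called lower and higher. The median log2 fold change of the tested beta genes was -0.13 against 0.00 for all genes. Pcdhb16, the highest beta gene of the line, measured 26.3, 25.4 and 23.4 CPM in control and 27.5, 23.9 and 24.1 CPM with decitabine. Its groups overlapped, and its log2 fold change was 0.02 ± 0.07 (SE).

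The 5 beta genes that fell in B16F10, Pcdhb5, Pcdhb7, Pcdhb8, Pcdhb9 and Pcdhb11, all lie between the fifth and the eleventh place of the 22. Pcdhb5 measured 15.8, 14.2 and 13.8 CPM in control and 11.5, 9.91 and 11.6 CPM with decitabine, and it fell by 0.40 ± 0.10 (log2, SE). Pcdhb7 measured 5.38, 6.22 and 6.70 CPM in control and 4.13, 4.46 and 3.36 CPM with decitabine, and it fell by 0.61 ± 0.15. Pcdhb8 had the largest change of the 5, from 1.84, 2.13 and 2.20 CPM to 1.14, 0.805 and 0.845 CPM, and it fell by 1.13 ± 0.25. In each of the 5 genes, all control libraries lay above all treated ones. The call of Pcdhb9 was lost without treated replicate 3 and that of Pcdhb11 without control replicate 2. The other 2 genes of that stretch, Pcdhb6 and Pcdhb10, had log2 fold changes of -0.39 ± 0.45 and -0.60 ± 0.44 and were not called. None of the 11 genes from Pcdhb12 to Pcdhb22 was called in B16F10, whereas 9 of these 11 fell in 4T1 and the other 2 were not tested there. The stretch was noticed in these fold changes, and no test of position was made. Pcdhb3 was the 1 beta gene called higher, by 0.61 ± 0.23, and its call was lost when any of 5 of the 6 libraries was left out. The beta genes of the lines also started from different levels, since the 3 genes called lower in both lines (Pcdhb5, Pcdhb7 and Pcdhb11) had control means of 4.37 to 14.6 CPM in B16F10 and 0.266 to 0.409 CPM in 4T1.

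**Figure D2:**
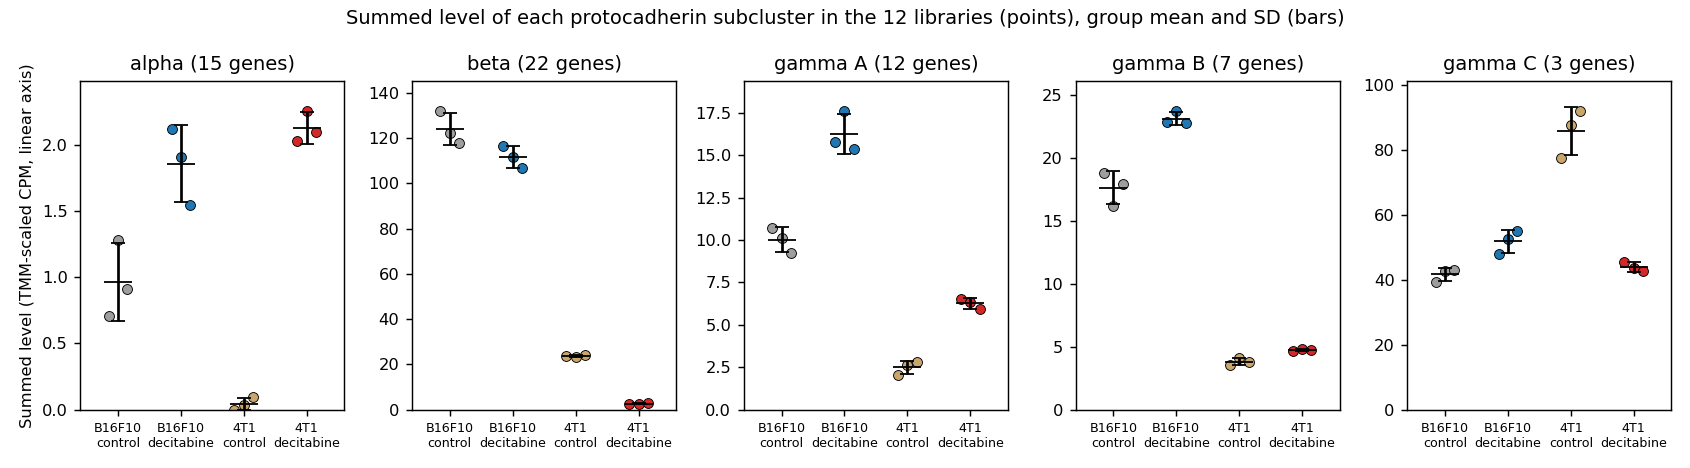
Summed level (TMM-scaled CPM, linear axes from 0) of the alpha, beta, gamma A, gamma B and gamma C genes in each library (points), with group means and SD (bars, n = 3). The beta sum of 4T1 drops from 23.8 to 2.65 CPM with decitabine, the gamma A sum is higher with decitabine in both lines, and the gamma C sum is higher in B16F10 and lower in 4T1.

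The gamma subcluster moved in both directions in 4T1. Its sum was 83.2, 94.5 and 98.7 CPM in control and 56.8, 55.0 and 53.4 CPM with decitabine, a log2 ratio of the means of -0.74, and its groups did not overlap. That lower sum came from Pcdhgc3 and Pcdhgc4. Without this pair the gamma sum was 6.50 ± 0.575 CPM in control and 11.3 ± 0.325 CPM with decitabine (SD, n = 3 each). It was higher in every treated library than in any control, by a log2 ratio of 0.80. Of 14 tested gamma genes, 7 were called higher (50.0%), 3 lower (21.4%) and 4 neither, where 39.2% of all genes were called higher and 36.1% lower. Over those 14 the median log2 fold change was 0.90, against 0.03 for all genes. Genes near 0 in control, such as Pcdhga12 (means of 0.114 CPM in control and 2.55 CPM treated), passed the filter through the treated libraries. Pcdhga6 (1.20 and 0.0683 CPM) passed it through the controls. For such genes the direction was largely set by the filter, so these counts and the median are given as a description.

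Pcdhgc3 went from 64.0, 71.6 and 76.7 CPM in the 4T1 controls to 35.5, 35.2 and 33.9 CPM with decitabine. The groups did not overlap, and it fell by 0.97 ± 0.06 (log2, SE). Pcdhgc4 went from 13.4, 15.9 and 15.3 CPM to 9.67, 8.40 and 8.50 CPM, and it fell by 0.70 ± 0.09. The third C-type gamma gene, Pcdhgc5, measured 0.260, 0.174 and 0.156 CPM in control and 0.452, 0.204 and 0.315 CPM with decitabine, and its groups overlapped. Pcdhga6 was the other gamma gene that fell, from 0.940, 1.40 and 1.24 CPM to 0.104, 0.0789 and 0.0222 CPM, by 4.29 ± 0.41 (log2, SE). It was also the only A-type gene of 4T1 controls with a mean above 1 CPM, and it took 47.8% of the control gamma A sum.

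The 7 gamma genes that rose in 4T1 all lie between the eleventh and the nineteenth place of the 22, next to the C-type genes, and include Pcdhga12, the last A-type gene. Pcdhga12 measured 0.157, 0.0757 and 0.109 CPM in control and 2.85, 2.32 and 2.49 CPM with decitabine. It rose by 4.51 ± 0.26 (log2, SE), from 18 counts over the control libraries to 403 over the treated ones, and became the highest A-type gene. Pcdhga11 measured 0.177, 0.211 and 0.296 CPM in control and 1.51, 1.85 and 1.58 CPM with decitabine, and it rose by 2.86 ± 0.24. Pcdhgb7 measured 0.747, 0.963 and 0.771 CPM in control and 1.81, 1.58 and 1.59 CPM with decitabine, and it rose by 1.05 ± 0.18. None of these 3 genes overlapped between the groups. The others were Pcdhga10, Pcdhgb5, Pcdhga9 and Pcdhga8, named after their values were seen, with log2 fold changes of 2.78 ± 0.48, 1.35 ± 0.34, 1.27 ± 0.44 and 1.11 ± 0.29. The remaining 2 genes of those 9 places, Pcdhgb6 and Pcdhgb8, had log2 fold changes of 0.21 ± 0.23 and -0.11 ± 0.17 and were not called. Of the first 10 gamma genes, 8 were too low to test in 4T1, Pcdhga6 fell, and Pcdhgb2 was not called (-0.29 ± 0.37). The places of the 7 thus depend in part on which genes could be tested. This stretch was noticed in the fold changes, and no test of position was made.

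In B16F10, decitabine left most gamma genes higher. The gamma sum was 68.9, 69.1 and 70.1 CPM in control and 86.6, 93.8 and 93.4 CPM with decitabine, with no overlap and a log2 ratio of 0.40. Of 22 gamma genes, all tested, 15 rose (68.2%), 1 fell and 6 were not called, where 21.4% of all genes rose and 19.8% fell. The median log2 fold change of the 22 was 0.91 against 0.00 for all genes. Pcdhga7 and Pcdhgb4, with control means of 0.00558 and 0.0724 CPM, passed the filter through the treated libraries, so their rise was largely set by it. The A-type sum was 10.7, 10.1 and 9.23 CPM in control and 15.8, 17.6 and 15.4 CPM with decitabine, and the B-type sum 18.8, 16.2 and 17.9 CPM against 22.8, 23.7 and 22.8 CPM. All treated libraries were above all controls in 17 of the 22 genes, the reverse held in 2, and 3 overlapped.

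By the estimated counts, increases in B16F10 were found along the whole gamma subcluster. Reads from the shared constant exons can be spread over several rows. The number of gamma genes that rose or fell in either line therefore depends on the estimated split. Pcdhga7, the A-type gene with the largest fold change, had a single count (1) in the B16F10 controls and 83 in the treated libraries, 84.2-fold more (95% interval from counting error 14.7 to 3366). In 4T1 it had 0 and 16 counts, at least 5.30-fold higher, and was not tested. Pcdhgb2 measured 3.07, 2.89 and 3.18 CPM in control and 5.71, 5.77 and 6.44 CPM with decitabine, and it rose by 0.97 ± 0.14 (log2, SE). Pcdhga12 measured 1.03, 1.14 and 1.47 CPM in control and 2.14, 2.18 and 1.83 CPM with decitabine, and it rose by 0.76 ± 0.24, a call lost without control replicate 1. Pcdhgb8 rose by 0.34 ± 0.12, from 5.42 ± 0.280 to 6.85 ± 0.194 CPM (SD, n = 3 each), a call lost without any of 4 of the 6 libraries. Pcdhga3, at 1.91 ± 0.294 and 1.25 ± 0.357 CPM (SD, n = 3 each), had the lowest log2 fold change of the tested gamma genes, -0.60 ± 0.26, and was not called.

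Pcdhgb7 was the 1 gamma gene that fell in B16F10. It measured 6.87, 5.21 and 5.48 CPM in control and 4.85, 4.29 and 3.99 CPM with decitabine, which left a narrow gap between the groups, and it fell by 0.41 ± 0.15 (log2, SE). The call was lost without 1 control library (replicate 1) or without treated replicate 2 or 3. Pcdhgb7 was the highest B-type gene of B16F10 controls, at 33.2% of the B-type sum, and Pcdhgb8 was the highest after decitabine, at 29.6%.

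All 3 C-type gamma genes rose in B16F10. Pcdhgc4 went from 38.1, 41.3 and 42.2 CPM to 45.0, 48.9 and 51.5 CPM, and it rose by 0.26 ± 0.07 (log2, SE). Pcdhgc5 went from 1.15, 1.00 and 0.815 CPM to 2.09, 2.92 and 2.76 CPM, and it rose by 1.39 ± 0.24. Pcdhgc3 went from 0.241, 0.431 and 0.0157 CPM to 0.894, 0.700 and 1.02 CPM, and it rose by 1.96 ± 0.65, from 38 to 151 counts. None of the 3 genes overlapped between groups, but Pcdhgc3 remained far below its 4T1 level, and its call was lost without control replicate 1 or treated replicate 1 or 3.

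**Figure D3:**
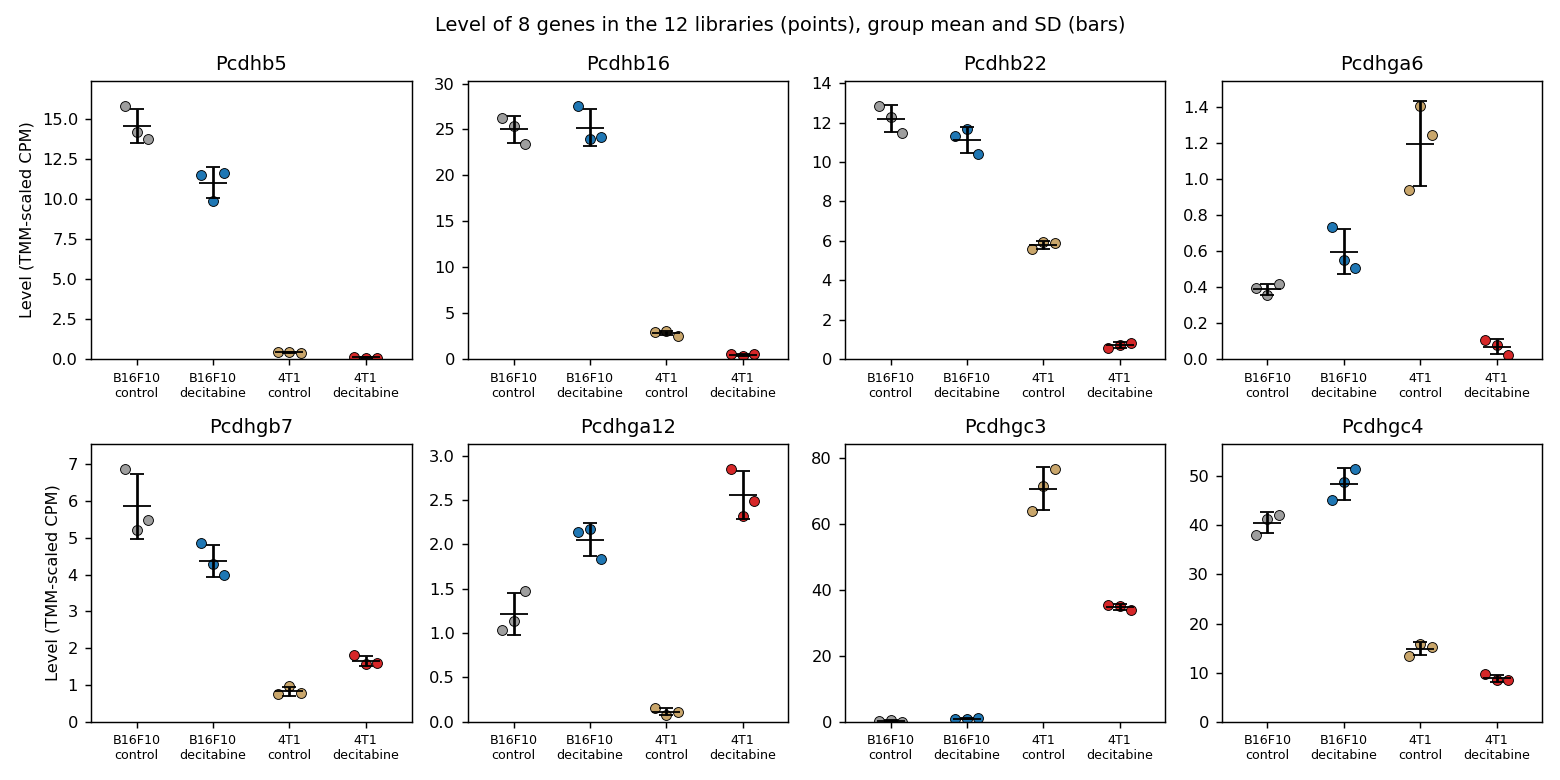
Level (TMM-scaled CPM, linear axes from 0) of 8 beta and gamma genes in each library (points), with group means and SD (bars, n = 3). Pcdhgc3 drops from 70.8 to 34.9 CPM in 4T1 and stays below 1.1 CPM in B16F10, Pcdhga12 climbs from 0.114 to 2.55 CPM in 4T1, and Pcdhgb7 is lower with decitabine in B16F10 and higher in 4T1.

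The alpha subcluster was nearly silent and took up reads in 4T1 after decitabine. The alpha sum was 0, 0.0361 and 0.0953 CPM in the 4T1 controls and 2.02, 2.25 and 2.10 CPM in the treated libraries. This was 7 counts against 341 over the 3 libraries each, and 5 of the 7 were in control replicate 3. The number of alpha genes with at least 3 counts was 0, 0 and 1 in the controls and 10, 11 and 9 in the treated libraries. By the estimated split, the highest gene, Pcdha4, made up 19.6% of the treated sum. All treated libraries were above all controls for 11 of the 15 alpha rows, and 4 overlapped. Reads from the shared constant exons can be spread over several rows, so how many alpha genes gained RNA cannot be told from these counts.

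Pcdha4 was the only alpha gene of 4T1 with enough counts to be tested, and it was called higher. It passed the filter through the treated libraries alone, so a rise was largely set by the filter. It shares 90.7% of its 31-base words with other members, and an annotated transcript of it has 66 bases of its own beside the constant exons, so how much of its count came from constant exons was not tested. It had 0 counts in control and 0.306, 0.601 and 0.344 CPM with decitabine, 67 counts in all, so it was at least 22.2-fold higher against 3 counts over the group. Pcdha6 had 0 counts in control and 0.324, 0.198 and 0.360 CPM with decitabine, at least 15.6-fold higher, and Pcdha8 went from 3 to 41 counts, 13.6-fold more (95% interval from counting error 4.33 to 68.6). The C-type alpha genes had few reads. Pcdhac1 had 0 counts in B16F10 and in the 4T1 controls and 2 counts in 1 treated 4T1 library, and Pcdhac2 had 0 counts in B16F10 and the 4T1 controls and 9 counts in 2 treated 4T1 libraries.

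In B16F10 the alpha sum was 0.703, 1.28 and 0.911 CPM in control and 2.12, 1.90 and 1.55 CPM with decitabine. The groups did not overlap, and the log2 ratio of the means was 0.94. Of the 3 alpha genes tested, Pcdha5, Pcdha8 and Pcdha9, 0 were called. Pcdha8 took 66.4% of the control sum, and measured 0.633, 0.935 and 0.354 CPM in control and 1.08, 0.555 and 0.477 CPM with decitabine. Its groups overlapped. Pcdha5 measured 0, 0 and 0.171 CPM in control and 0, 0.348 and 0.552 CPM with decitabine, so its groups overlapped too, and its log2 fold change was 2.25 ± 1.56 (SE). Because alpha genes share most of their sequence, the split of these few reads among them is an estimate.

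**Figure D4:**
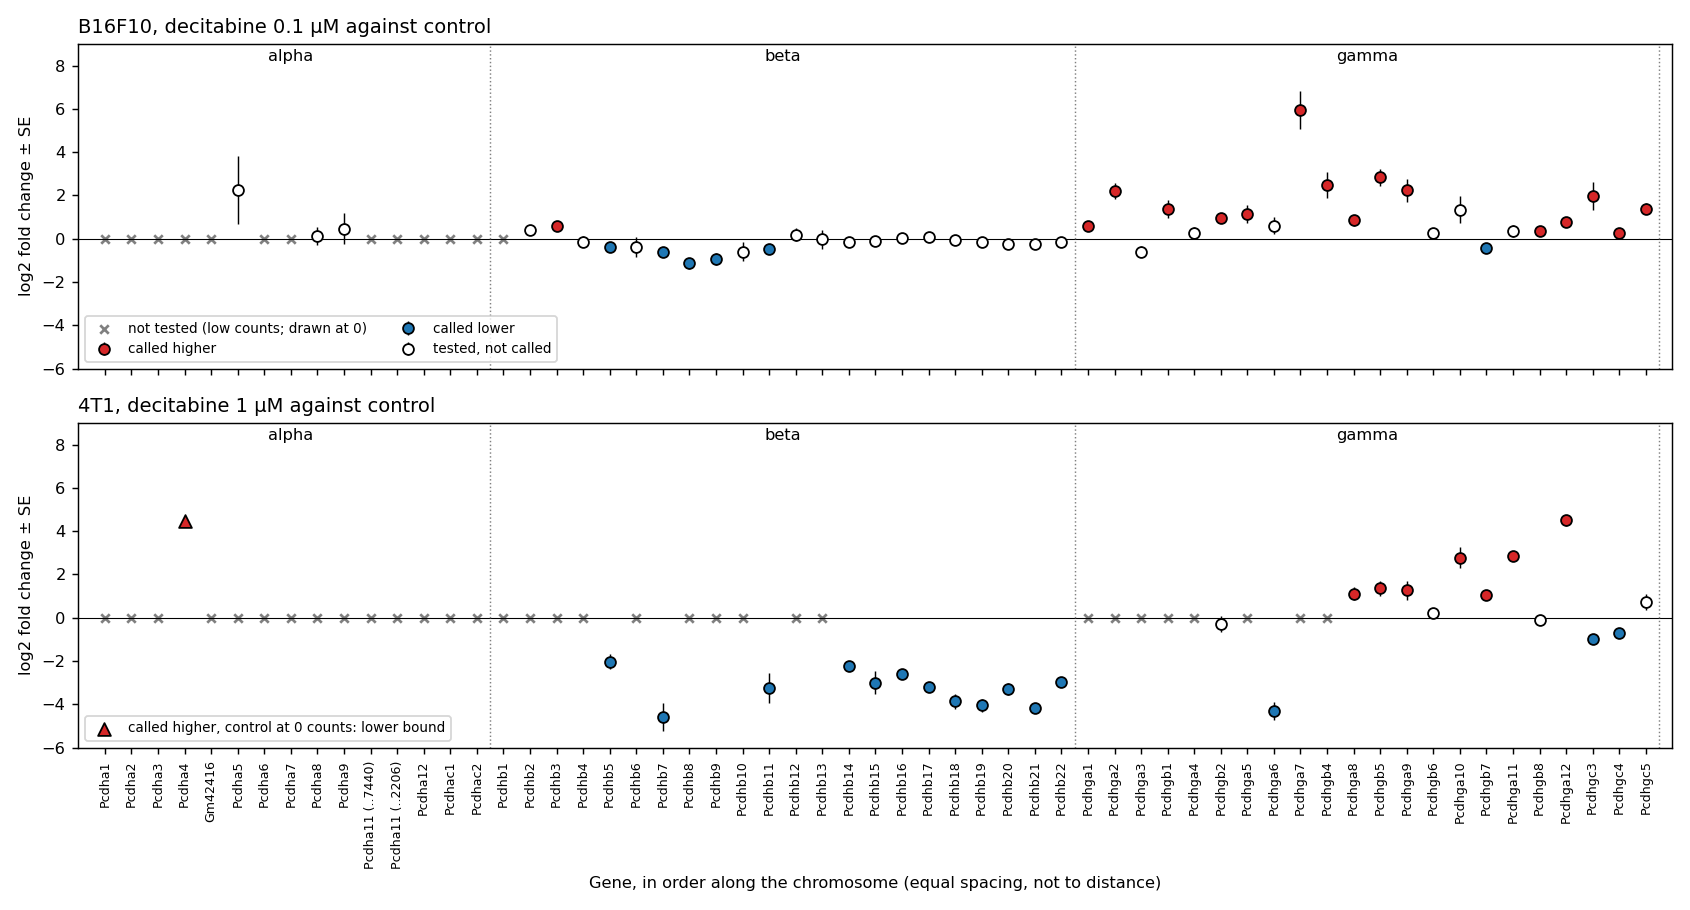
log2 fold change with SE of each gene, decitabine against control, in B16F10 (upper) and 4T1 (lower), in order along the chromosome with equal spacing. Crosses at 0 mark genes that were not tested, and the triangle marks Pcdha4, drawn at its lower bound because its controls had 0 counts. In B16F10 the gamma genes are mostly above 0 and the beta genes near 0, while in 4T1 all 12 tested beta genes lie between -2.04 and -4.59.

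Over the family, 16 of 46 tested members rose and 6 fell in B16F10, and 8 of 27 rose and 15 fell in 4T1. In B16F10 the 16 were 34.8% of the tested members, against 21.4% of all genes that rose, and 19.8% of all genes fell. In 4T1 they were 29.6% and 55.6%, against 39.2% and 36.1%. Members near 0 in a group passed the filter through the other group, which largely set their direction, so these counts are descriptions. The 16 became 10 without treated B16F10 replicate 2 or replicate 3, and the 8 became 19 without the expression filter. Of the members called higher, 4 were the same in both lines (Pcdhga8, Pcdhgb5, Pcdhga9 and Pcdhga12), which is 4 of 16 in B16F10 and 4 of 8 in 4T1. Of those called lower, the 3 shared genes were 3 of 6 in B16F10 and 3 of 15 in 4T1. In 3 genes the calls were opposite, since Pcdhgc3 and Pcdhgc4 rose in B16F10 and fell in 4T1, and Pcdhgb7 fell in B16F10 and rose in 4T1. The difference of the fold changes (4T1 minus B16F10, fit of all 12 libraries) was called lower for 24 of 48 tested members and higher for 4, where 28.9% and 20.9% of all 17127 genes were called so. The 24 were 18 beta and 6 gamma genes. The difference was -2.64 ± 0.19 (log2, SE) in Pcdhb16, -2.89 ± 0.17 in Pcdhb22 and -3.02 ± 0.47 in Pcdhgc3, and 3.71 ± 0.38 in Pcdhga12 and 1.42 ± 0.24 in Pcdhgb7.

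Among known regulators of the clusters, more fell than rose with decitabine in each line. Of 27 tested regulators (DNA methylation, CTCF and cohesin, Smchd1, H3K9 and Polycomb factors), 13 fell and 2 rose in B16F10, and 16 fell and 1 rose in 4T1 (25 and 1 with library size scaling alone), with median log2 fold changes of -0.15 and -0.16. Of all genes tested, 19.8% fell and 21.4% rose in B16F10, and 36.1% fell and 39.2% rose in 4T1. Dnmt1, the maintenance DNA methyltransferase, fell by 0.66 ± 0.06 in B16F10 (log2, SE; edgeR adjusted p = 2.57e-08) and by 0.28 ± 0.05 in 4T1 (adjusted p = 0.000515). Smchd1, a chromatin protein that represses the protocadherin clusters in mice, fell from 222 ± 5.25 to 150 ± 6.95 CPM in 4T1 and from 152 ± 8.41 to 129 ± 11.2 CPM in B16F10 (SD, n = 3 each). Suz12, a Polycomb subunit, fell by 0.52 ± 0.06 in B16F10 and 0.55 ± 0.04 in 4T1, and Uhrf1, which brings Dnmt1 to replicated DNA, by 0.51 ± 0.06 and 0.47 ± 0.06. The cohesin subunit Stag2 fell by 0.46 ± 0.04 in 4T1 and measured -0.09 ± 0.06 in B16F10. Dnmt3a, a de novo methyltransferase, rose in B16F10 from 108 ± 5.36 to 165 ± 5.91 CPM and was not called in 4T1. Atf7ip, a partner of the H3K9 methyltransferase Setdb1, rose by 0.33 ± 0.06 in B16F10 and 0.51 ± 0.08 in 4T1. Whether any of these changes bears on the protocadherins was not tested.

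Genes for partners and processing of the proteins, the kinases bound by their constant domain, the WAVE complex and the proteases that cut them, were lower more often than higher in 4T1. Of 20 tested there, 13 fell and 5 rose (15 and 3 with library size scaling alone), and of 19 in B16F10, 6 fell and 4 rose, where 36.1% and 39.2% of all genes fell and rose in 4T1 and 19.8% and 21.4% in B16F10. Prkca, of the protein kinase C family that phosphorylates the gamma constant domain, fell by 1.08 ± 0.05 in 4T1 (log2, SE) and by 0.51 ± 0.06 in B16F10. Cyfip1 of the WAVE complex fell by 0.63 ± 0.04 and Aph1a of gamma-secretase by 0.59 ± 0.04 in 4T1. Psen2 of gamma-secretase fell by 0.75 ± 0.07 and the kinase Fyn by 0.48 ± 0.06 in B16F10, while Fyn rose by 0.29 ± 0.06 in 4T1, a direction that turned with library size scaling alone. Abi1 of the WAVE complex rose in both lines, by 0.23 ± 0.05 in B16F10 and 0.39 ± 0.04 in 4T1, as did Ptk2b, a kinase inhibited by protocadherins, by 0.39 ± 0.08 and 0.81 ± 0.09. Nlgn1, a synaptic protein, had 0 counts in the 4T1 controls and measured 3.48, 2.96 and 2.74 CPM with decitabine. It passed the filter through the treated libraries alone, so the direction of its call was largely set by the filter.

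Few protocadherins encoded outside the clusters had enough counts to be tested. Of 12 listed, 4 were tested in B16F10, of which 2 rose and 0 fell, and 6 in 4T1, of which 5 rose and 1 fell (4 and 1 with library size scaling alone). Of all genes, 21.4% rose in B16F10 and 39.2% in 4T1. Pcdh7 measured 4.59, 3.67 and 4.52 CPM in B16F10 controls and 13.1, 11.1 and 12.6 CPM with decitabine, and it rose by 1.53 ± 0.12 (log2, SE; edgeR adjusted p = 1.15e-08). In 4T1, Pcdh9 rose by 3.01 ± 0.40 and Pcdh15 by 3.14 ± 0.43, both from under 0.1 CPM to means of 0.413 and 0.508 CPM. They and Pcdh19 (means of 0.130 CPM in control and 0.536 CPM treated) passed the filter through the treated libraries. For such genes a rise was largely set by the filter, so the count of 5 is given as a description. Pcdh18 was the 1 that fell, from 10.8 ± 0.932 to 6.11 ± 0.349 CPM in 4T1 (SD, n = 3 each).

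Genes around the clusters were called in either direction about as often as all genes. Of 25 tested protein-coding genes within the clusters or within 500 kb of either end, 7 rose and 4 fell in B16F10, and 11 rose and 11 fell in 4T1, with median log2 fold changes of 0.02 and 0.06. Of all genes, 21.4% rose and 19.8% fell in B16F10, and 39.2% rose and 36.1% fell in 4T1. With library size scaling alone the counts in 4T1 were 6 and 15, and Sra1, Wdr55 and Hars turned from higher to lower. Taf7, a subunit of the transcription factor complex TFIID, lies between beta and gamma (37640491 to 37644204). It measured 6.58, 6.68 and 6.73 CPM in 4T1 controls and 25.8, 24.5 and 24.5 CPM with decitabine, and it rose by 1.95 ± 0.06 (log2, SE; edgeR adjusted p = 8.74e-10). In B16F10 it rose by 0.57 ± 0.13. Every treated 4T1 library was thus well above every control in a gene that neighbours beta genes that fell. Diaph1, a formin and the first gene past gamma, fell by 0.82 ± 0.06 in 4T1 and measured 0.02 ± 0.06 in B16F10. Farther out, Pcdh12 rose by 1.34 ± 0.16 in B16F10 and 2.17 ± 0.26 in 4T1, and Arap3, a GTPase-activating protein, by 0.95 ± 0.13 in B16F10. Hbegf, a growth factor on the alpha side, rose by 0.46 ± 0.10 in B16F10 and fell by 0.95 ± 0.15 in 4T1, and Slc35a4 fell by 0.69 ± 0.05 in 4T1. Fchsd1 and Gnpda1 rose by 1.36 ± 0.12 and 0.63 ± 0.06 in 4T1. Hdac3, a histone deacetylase, fell by 0.17 ± 0.06 in B16F10 and 0.42 ± 0.05 in 4T1, and Dele1 and Tmco6 fell by 0.41 ± 0.06 and 0.42 ± 0.14 in B16F10.

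**Figure D5:**
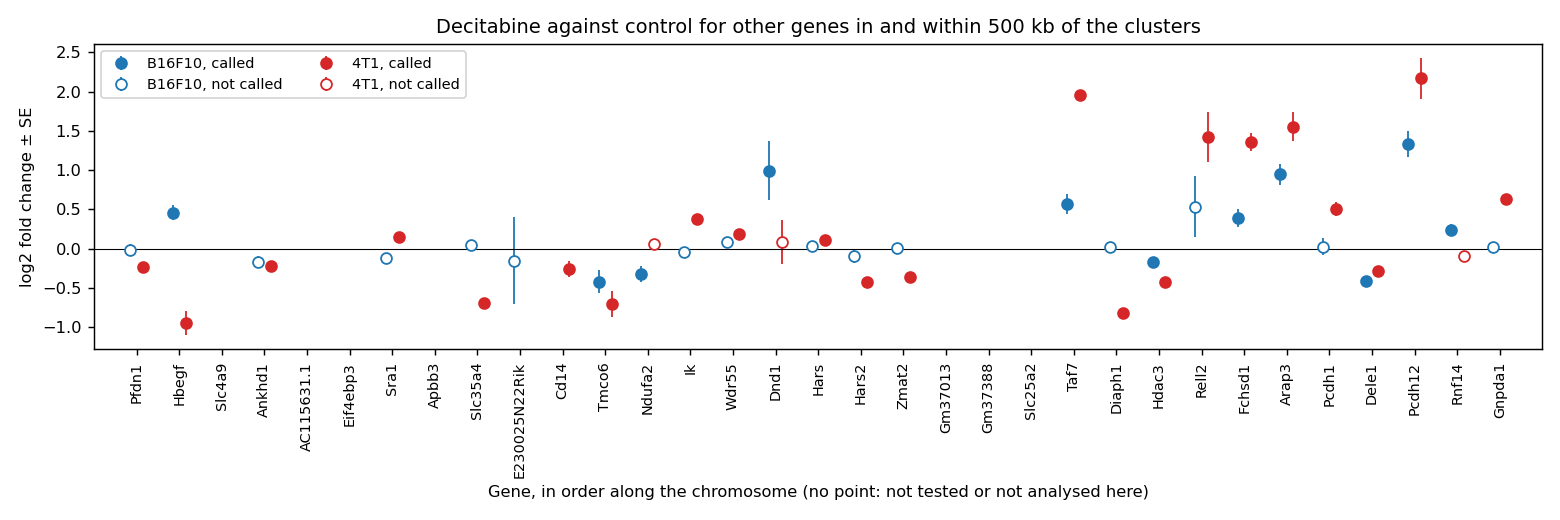
log2 fold change with SE, decitabine against control, of the other protein-coding genes inside the protocadherin region and within 500 kb of it, in order along the chromosome, in B16F10 (blue) and 4T1 (red). Filled points were called. In 4T1, Taf7 lies at 1.95 and Diaph1 at -0.82, and both directions occur on each side of the clusters.

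Neuron markers, listed because the family is best known in neurons, were mostly low, but Tubb3, Ncam1 and Map2 were high in B16F10. Of 14, 4 were tested in each line. In B16F10, 0 were higher and 2 lower, against 21.4% and 19.8% of all genes. In 4T1, 3 were higher and 1 lower, against 39.2% and 36.1% of all genes. The 14 markers summed to 34.3 to 36.5 CPM in 4T1 controls and 19.9 to 22.3 CPM with decitabine. In B16F10 these sums were 457 to 479 CPM in control and 312 to 345 CPM with decitabine. Most of the B16F10 sum came from Tubb3, Ncam1 and Map2, with control means of 241, 174 and 52.0 CPM. Their B16F10 means with decitabine were 219, 81.3 and 31.4 CPM. Ncam1 and Map2 were the 2 called lower in B16F10, and Tubb3 was not called there. The lower sum in 4T1 came from Map2, which fell, while the median log2 fold change of the 4 tested there was 2.20. Of these 4, Nefm and Elavl3, with control means of 0 and 0.100 CPM, passed the filter through the treated libraries. Their rise was largely set by the filter, so the median and the 3 higher calls are given as a description. Of the 14, those at 0 counts in 4T1 controls were Snap25, Stmn2, Nefm, Gap43 and Ncam1, and none was at 0 in all treated 4T1 libraries. Of 5 endothelial, 6 blood and 7 fibroblast markers, 3, 2 and 3 were tested in 4T1. Among those tested, 2, 2 and 2 were called higher and 0, 0 and 1 lower, beside the same shares of all genes in 4T1. The 2 blood markers tested were near 0 in control and passed the filter through the treated libraries, so their rise was largely set by it. Endothelial markers summed to 11.2 to 16.5 CPM in 4T1 controls and 22.8 to 46.5 CPM with decitabine, blood markers to 0.117 to 0.133 and 1.74 to 3.28 CPM, and fibroblast markers to 10.8 to 11.4 and 19.1 to 22.1 CPM. In 4T1 controls, Lyz2 and Hba-a1 of the blood markers and Lum of the fibroblast markers were at 0, as were Tyrp1, Dct and Sox10 of the melanocyte markers. In B16F10, endothelial markers summed to 0.0511 to 0.175 CPM in control and 0.245 to 0.634 CPM with decitabine, blood markers to 2.39 to 3.07 and 3.35 to 4.20 CPM, and fibroblast markers to 46.7 to 52.2 and 57.5 to 62.7 CPM. In B16F10 controls, Ptprc and Cd3e of the blood markers, Cdh5, Kdr, Tek and Emcn of the endothelial and Thy1 of the fibroblast markers were at 0. The part of such markers in the protocadherin values was not tested.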

How the data were processed

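RNA of 12 libraries was measured by sequencing. The authors deposited 1 table of estimated counts for each line, and RSEM, edgeR and the mm10 build are named in the submitters' processing notes without roles. The annotation and strand setting, not given in the sources used here, are unknown. The deposited estimated counts were rounded to whole numbers, and each line's 6 libraries were tested over all genes with edgeR 4.0.16 (default expression filter, TMM, robust quasi-likelihood test, Benjamini-Hochberg threshold 0.05) in R 4.3.3. The difference between lines and the control levels came from 1 fit of all 12 libraries. The filter keeps a gene that is high enough in 1 group, so a gene near 0 in the other was still tested. Each SE is the fold change over the square root of the quasi-likelihood F. CPM and sums used unrounded counts, and sums carry no test. Folds against 0 counts are bounds that put 3 counts over the group in place of 0, and ratios from 1 to 3 counts have 95% exact intervals, which cover counting error only. The tests were tried on simulated counts. Alternatives were RLE or library size scaling, no filter, DESeq2 1.42.0, limma-voom 3.58.1, a replicate block, 1 joint fit and leaving out each library.

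Members and gene lists were chosen with earlier results of these data known. Named members were, per line and subcluster, the 3 highest and those with the largest and smallest fold change, all C-type genes, and up to 5 called lower or, per direction, in the difference. Of each list up to 3 called genes a direction were named, by smallest adjusted p; other named genes and the stretches of neighbouring genes were picked after their values were seen. Figures were drawn with matplotlib 3.10.9. Shared sequence was measured with 31-base words of GENCODE M21 transcripts. Values of some list genes are not reported here.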

Additional observations from a re-analysis of the deposited data

Results flagged for a closer look

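The decitabine response differed between the lines in 28 members by the test of the difference itself (4T1 minus B16F10, on the log2 scale, edgeR). Since dose differs with the line, the line and the dose cannot be told apart in any of them. The difference was below 0 in 18 beta genes: Pcdhb3 (-1.82), Pcdhb4 (-5.77), Pcdhb5 (-1.69), Pcdhb7 (-4.03), Pcdhb8 (-2.91), Pcdhb9 (-2.54), Pcdhb10 (-3.95), Pcdhb11 (-2.83), Pcdhb12 (-3.63), Pcdhb14 (-2.15), Pcdhb15 (-2.96), Pcdhb16 (-2.64), Pcdhb17 (-3.32), Pcdhb18 (-3.83), Pcdhb19 (-3.92), Pcdhb20 (-3.08), Pcdhb21 (-3.98) and Pcdhb22 (-2.89). It was below 0 in 6 gamma genes, Pcdhga2 (-2.90), Pcdhgb2 (-1.31), Pcdhga6 (-4.94), Pcdhgb5 (-1.52), Pcdhgc3 (-3.02) and Pcdhgc4 (-1.01). It was above 0 in Pcdha8 (3.47), Pcdhgb7 (1.42), Pcdhga11 (2.45) and Pcdhga12 (3.71). Pcdhb4 and Pcdhb10 had 0 counts in the treated 4T1 libraries, so their values depend on the added prior count. The difference in Pcdhb3 kept its call in neither DESeq2 nor limma-voom.

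Among the other genes named, the response also differed between the lines. For regulators of the clusters, the differences were those of Stag2 (-0.42), Smchd1 (-0.33), Dnmt1 (0.33) and Dnmt3a (-0.51). Partner and processing genes with a difference were Ptk2b (0.37), Fyn (0.72), Prkca (-0.62), Psen2 (0.28), Aph1a (-0.59) and Cyfip1 (-0.56). Around the clusters they were Pcdh12 (0.79), Hbegf (-1.45), Slc35a4 (-0.79), Taf7 (1.34), Diaph1 (-0.88), Hdac3 (-0.29), Fchsd1 (0.92) and Gnpda1 (0.56). In Fyn and Hbegf the calls of the lines were opposite, and the rise of Fyn in 4T1 turned direction with library size scaling alone.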

How the results depend on the processing

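Most results did not change with the processing. Over 99 single fold changes and differences, 1483 of 1530 alternatives kept direction and call, 36 lost the call, 11 gained it and 0 turned direction. Without a filter on low counts, 19 members were called higher in 4T1 in place of 8. Leaving out 1 library at a time, 10 to 14 members were called higher in B16F10 in place of 16, with 10 without treated replicate 2 or treated replicate 3. The same gave 9 to 11 higher and 15 to 16 lower in 4T1, and 4 to 7 lower in B16F10. With library size scaling alone, the log2 ratio in 4T1 was -3.41 for the beta sum and -0.99 for the gamma sum. Without Pcdhgc4, an alternative added after seeing the data, the gamma sum in B16F10 gave 0.57. The alpha sum in 4T1 ranged from 5.02 to 6.88, the latter without control replicate 3. Same-numbered libraries did not vary together (correlations -0.27, -0.22 and -0.04 in B16F10 and -0.18, 0.11 and -0.15 in 4T1). From 3 libraries per group, these values cannot decide whether the numbers pair samples. With the replicate number as a block, 16 members were called higher and 6 lower in B16F10, 8 and 15 in 4T1, and 4 and 23 in the difference. The block could not be fitted for untreated 4T1 against untreated B16F10. The causes of these shifts were not tested. Depth limits the alpha genes, where most values lay near the 3-count floor, and calls in 4T1, where 32 members were too low to test.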
